A study of Mus musculus with 2 samples.

Results

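The 10 genes described here are known for their expression in the choroid plexus epithelium: Ttr, Folr1, Kcnj13, Clic6, Kl, Aqp1, Sostdc1, Enpp2, Slc4a5 and Prlr. They were named by symbol as known markers, with earlier results of these data in view, and all 10 were found among 43346 genes measured by total RNA-seq. The 2 libraries came from the hindbrain of mouse embryos of strain B6NCrl at 14.5 days of gestation, with no treatment or altered genotype given in the labels. They form 1 group, so no condition is compared. Per the labels each library holds the hindbrain of 1 pup, the sex is called pooled, both carry the same donor identifier, and the pups were taken on 2 dates. Replicate and collection date therefore cannot be told apart.

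The choroid plexus is a folded epithelium that hangs into the brain ventricles and secretes the cerebrospinal fluid. Its hindbrain part, in the fourth ventricle, forms from the roof plate of the rhombencephalon, and its cells become multiciliated. The cells load the fluid with carrier proteins and growth factors, move vitamins from blood to fluid, and drive water across with pumps, channels and bicarbonate transporters. Ttr is the classic marker of the differentiated epithelium.

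Genes that mark hindbrain position, looked up after the data were seen, were present. Hoxb2 had 33.8 and 31.9 TPM, Hoxa2 28.3 and 22.7 TPM, Gbx2 33.4 and 33.3 TPM, and Atoh1 10.8 and 10.55 TPM, while Egr2 was low at 1.37 and 0.91 TPM. Outside this choice, the Hox genes Hoxc8 and Hoxb9 had 18.1 and 7.45 TPM and 17.8 and 8.75 TPM. Whether both hindbrains were taken with the same borders was not tested. The libraries held 34929425 and 33510896 expected counts, of which 33727977 and 32450699 fell on genes. Expected counts are the estimated reads of a gene, and TPM is the length-scaled share of all transcripts, so levels of different genes are compared here as TPM. Whole hindbrains were sequenced, so fewer choroid plexus cells and less RNA per cell cannot be told apart. The labels give a pup for each replicate, but the same donor identifier for both. Any p-value between the replicates measures only the difference of these 2 libraries, which may be technical. An exact two-sided binomial test of rounded expected counts, with each library's total over genes as its scale and Benjamini-Hochberg adjustment, called 18.7% of 17664 genes lower in replicate 2 and 15.7% higher, and "called" means past that test. With the spike-in RNAs as scale the shares were 8.46% lower and 35.2% higher, so counts in a gene list are read against the shares of the same scaling.

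Of the 10 members, 9 were at or above 1 TPM in both libraries, and Kl was below it in replicate 1, whereas 34.8% of all genes reached that level in both. Ttr stood far above the rest, at 1459 ± 517 TPM (SD, n = 2). The other 9 genes spanned 72.1-fold in mean level, from Enpp2 at 85.1 ± 2.74 TPM to Kl at 1.18 ± 0.410 TPM. Between them lay Folr1 (44.4 ± 14.3 TPM), Sostdc1 (22.7 ± 4.50 TPM), Kcnj13 (18.3 ± 7.17 TPM), Clic6 (6.30 ± 1.499 TPM) and Aqp1, Slc4a5 and Prlr below 5 TPM. In this order the replicate ranges of 3 of 9 neighbouring pairs overlapped: Sostdc1 with Kcnj13, Aqp1 with Slc4a5, and Prlr with Kl. Ttr alone made up 89.7% of the summed TPM of the 10 genes in replicate 1 and 87.0% in replicate 2. The 10 genes took 0.157% of all gene counts in replicate 1 and 0.0963% in replicate 2.

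**Figure D1:**
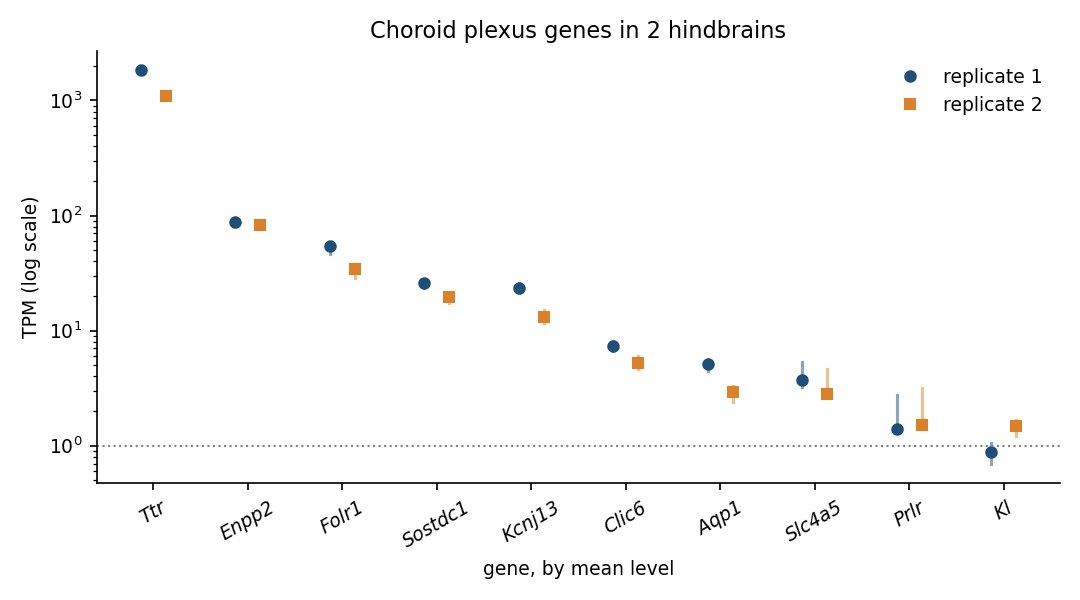
Level of each of the 10 genes in TPM on a log axis, replicate 1 as circles and replicate 2 as squares, ordered by mean level. Vertical lines are the authors' deposited intervals, which surround a posterior mean and need not hold the plotted value, and the dotted line is 1 TPM. Ttr lies at 1825 and 1094 TPM, and Kl in replicate 1 is the only point below the dotted line.

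Ttr (ENSMUSG00000061808.3, chromosome 18, 20665280 to 20674321, GRCm38) encodes transthyretin, which carries thyroxine and, bound to retinol binding protein, vitamin A. It had 43692 counts in replicate 1 and 23948 in replicate 2, or 1825 and 1094 TPM. It ranked as gene number 46 of 43346 by TPM in replicate 1 and number 80 in replicate 2. Transthyretin is also made by hepatocytes and by the retinal pigment epithelium. Of 8 hepatocyte genes, 3 reached 1 TPM in both libraries, and Alb, Fgb and Serpina1a had 0 counts in both. A count of 0 allows up to 3 counts, 0.0889 CPM in replicate 1 and 0.0924 CPM in replicate 2, for counting error only. The summed level of that list was 47.5 and 49.8 TPM, most of it Trf, the iron carrier transferrin, at 38.2 and 42.0 TPM. Of 8 retinal pigment epithelium genes, 3 reached 1 TPM in both. Rpe65, the defining enzyme of that tissue, had 0 counts in both libraries, and the summed level of 24.7 and 24.4 TPM lay mostly in Rlbp1.

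The carriers and receptors that work with transthyretin were present at lower levels. Rbp4, the blood carrier of retinol, had 7.06 TPM in replicate 1 and 4.31 TPM in replicate 2. Stra6, the receptor for that carrier, had 17.4 and 14.6 TPM. Both were lower in replicate 2 by the exact binomial test. Of the 8 genes of this carrier list, Ttr included, 6 were called lower and none higher, and 5 were lower with spike-in scaling.

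Enpp2 (ENSMUSG00000022425.11, chromosome 15, 54838901 to 54952892, minus strand) encodes autotaxin, a secreted enzyme that makes lysophosphatidic acid, and is also expressed by glial and meningeal cells. It had 5564 and 4871 counts, or 87.07 and 83.20 TPM, the most even level of the 8 genes of the set that were lower in replicate 2 by TPM. It shares 345 exonic bases with Gm26684 on the opposite strand, which had 3 and 1 counts. Of its 4 annotated transcripts, Enpp2-201 held 81.6% of the TPM in replicate 1 and 86.5% in replicate 2. The other 3 carry an extra coding exon. Autotaxin is known in an alpha form with an insert in the catalytic part, a beta form without inserts, and a gamma form with an insert nearer the C-terminus that is enriched in brain. The annotated transcripts also differ at their ends, and Enpp2-204 has an exon of 173 bases where Enpp2-201 has 185, which is not shown. The whole extra exons are shown in capitals with 15 flanking transcript bases on each side, from GENCODE M21 transcripts.
Exon of Enpp2-203 and Enpp2-204, chr15:54877776-54877931: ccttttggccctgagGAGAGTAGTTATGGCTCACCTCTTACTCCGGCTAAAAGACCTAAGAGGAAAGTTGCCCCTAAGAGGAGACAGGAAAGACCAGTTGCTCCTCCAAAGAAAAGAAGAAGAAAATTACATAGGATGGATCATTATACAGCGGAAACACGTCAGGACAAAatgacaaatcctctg
Exon of Enpp2-202, chr15:54851348-54851422: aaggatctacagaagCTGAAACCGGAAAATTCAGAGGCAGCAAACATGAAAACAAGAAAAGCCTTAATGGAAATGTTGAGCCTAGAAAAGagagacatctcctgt
The first has 156 bases and the second 75, so both keep the reading frame, adding 52 and 25 codons. Transcripts with the 156-base exon held 13.7% of Enpp2 TPM in replicate 1 and 11.2% in replicate 2. The transcript with the 75-base exon held 4.70% and 2.28%. The transcript without either exon was thus the main form in both hindbrains, and the share of the 75-base exon was the smaller of the inserts in both.

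Receptors for lysophosphatidic acid were lower than the enzyme. Lpar1 had 13.7 and 16.3 TPM, and Lpar4 had 6.01 and 5.72 TPM. The phosphatases that break the lipid down, Plpp1 and Plpp3, stood at 57.1 and 58.0 TPM and at 55.2 and 55.4 TPM. Of the 10 genes of this list, Enpp2 included, 7 reached 1 TPM in both libraries, 2 were called lower and 1 higher in replicate 2, and with spike-in scaling 1 was lower and 3 higher.

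Sostdc1 (ENSMUSG00000036169.5, chromosome 12, 36314139 to 36318452) encodes a secreted antagonist of BMP and Wnt signals, also called wise. It had 913 counts in replicate 1 and 629 in replicate 2, or 25.85 and 19.48 TPM, all on 1 transcript. Its relative Sost had 0 counts in both libraries. The Wnt co-receptors that Sostdc1 binds were lower than it in both, with Lrp6 at 9.95 and 11.4 TPM, Lrp4 at 3.54 and 3.32 TPM and Lrp5 at 1.42 and 1.16 TPM. Of the BMP receptor genes of that list, Acvr2a (52.6 and 62.1 TPM) and Acvr2b (33.6 and 30.4 TPM) were above Sostdc1 in both. Bmpr1a, at 20.1 and 21.1 TPM, was above it in replicate 2 only, and Bmpr2, Acvr1 and Bmpr1b were below it in both. Among BMP and Wnt ligand genes of the roof plate list, Bmp7 had 14.5 and 13.5 TPM and Bmp6 had 6.80 and 6.47 TPM, and neither was called between the libraries. Bmp4 had 2.81 and 1.54 TPM and Wnt5a had 23.1 and 21.6 TPM, and both were called lower in replicate 2, the call of Wnt5a being lost with spike-in scaling. Wnt1 had 1.64 and 1.53 TPM and Wnt3a 0.33 TPM in each library, and neither was called. Of the 11 genes of the receptor list, Sostdc1 included, 10 reached 1 TPM in both libraries, 2 were called lower and 3 higher, and with spike-in scaling 1 was lower and 5 higher.

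Folr1 (ENSMUSG00000001827.7, chromosome 7, 101858331 to 101870788, minus strand) encodes folate receptor alpha, which carries folate from blood into cerebrospinal fluid. It had 678 and 400 counts, or 54.55 and 34.33 TPM. Its reads were split over many gene models, with counts on 11 of 17 transcripts. Folr1-201, which has 960 bases and a complete coding sequence, held 67.4% of the counts in replicate 1 and 73.8% in replicate 2, but 45.5% and 51.1% of the TPM. The models Folr1-213, Folr1-206 and Folr1-211 begin further upstream, and their coding sequence is annotated as incomplete at its end. Folr1-213, of 331 bases, took 10.4% of the counts and 26.0% of the TPM in replicate 1, because a short model turns a count into more TPM. With all counts placed on Folr1-201, a setting chosen after the data were seen, Folr1 would stand at 36.8 and 23.8 TPM. Its order in the set by mean level and the higher value in replicate 1 were the same in that setting. The replicate range of Folr1 then overlapped that of Sostdc1, at 25.85 and 19.48 TPM.

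Among other folate genes, the proton-coupled transporter Slc46a1 had 19.95 and 20.6 TPM and the reduced folate carrier Slc19a1 had 32.8 and 33.8 TPM, neither of them called. Folr2, the receptor of macrophages, had 2.34 and 1.04 TPM and was lower in replicate 2. Lrp2, the endocytic receptor megalin, had 1.30 and 0.87 TPM and was also lower. Of the 8 genes of the route, Folr1 included, 3 were called lower and 1 higher, the cytosolic enzyme Mthfd1, and with spike-in scaling 3 were lower and 2 higher.

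Kl (ENSMUSG00000058488.6, chromosome 5, 150952607 to 150993817) encodes klotho, a co-receptor for FGF23 and a protein shed into the fluid. It was the lowest of the set and the only member called higher in replicate 2, with 95 counts in replicate 1 and 144 in replicate 2, or 0.89 and 1.47 TPM. Its ligand gene Fgf23 had 3 and 5 counts, and the related co-receptor gene Klb had 5 in each library. Of the FGF receptor genes, Fgfr1 had 32.6 and 34.9 TPM and Fgfr3 36.2 and 37.9 TPM, above Kl, whereas Fgfr4 had 0.73 and 1.31 TPM, below Kl in both libraries. Of the 9 genes of that list, Kl included, 4 reached 1 TPM in both libraries, 1 was called lower and 2 higher, and with spike-in scaling 1 was lower and 5 higher.

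Prlr (ENSMUSG00000005268.16, chromosome 15, 10177238 to 10349180) encodes the prolactin receptor, which occurs in a long form that signals through JAK2 and STAT5 and in short forms. It had 155 and 150.83 counts, or 1.41 and 1.52 TPM, nearly equal in the libraries. Of 12 annotated transcripts, 4 had any count. Prlr-202, with the longest coding sequence of the gene, 1824 bases, held 94.5 and 98.1 counts. Prlr-201, a transcript annotated with a retained intron, held 58.8 and 50.8 counts. By counts Prlr-202 was the larger, at 60.9% and 65.05% of the gene. By TPM Prlr-201 was the larger, at 62.4% and 55.3%, because Prlr-202 is 9900 bases long and Prlr-201 is 3205. With all counts on Prlr-202, the setting chosen after the data were seen, the level would be 0.740 and 0.788 TPM, below 1. The authors' posterior mean was 2.17 and 2.41 TPM, so the level of Prlr depends on the gene model.

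Prlr shares 203 exonic bases with Gm21973 on the same strand, a gene with 0 and 2.17 counts. The short coding forms Prlr-204, Prlr-205 and Prlr-212, with 876, 930 and 909 coding bases, had 0 counts in both libraries. They start at position 10223986, away from the start of Prlr-201 at 10177238. The posterior mean, which never gives a transcript exactly nothing, put 4.13%, 0.917% and 4.59% of the gene on them in replicate 1. The 250 bases before the RefSeq start nearest to each group of transcripts are shown (GRCm38.p6, plus strand). Capitals mark a forkhead-type motif.
Prlr, before the start of Prlr-201, chr15:10176988-10177237: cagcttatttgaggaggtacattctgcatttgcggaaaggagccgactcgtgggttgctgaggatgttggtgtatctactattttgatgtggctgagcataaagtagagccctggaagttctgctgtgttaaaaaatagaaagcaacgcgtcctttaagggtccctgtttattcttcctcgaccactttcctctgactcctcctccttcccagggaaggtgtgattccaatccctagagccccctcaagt
Prlr, before the start nearest to the short forms, chr15:10223656-10223905: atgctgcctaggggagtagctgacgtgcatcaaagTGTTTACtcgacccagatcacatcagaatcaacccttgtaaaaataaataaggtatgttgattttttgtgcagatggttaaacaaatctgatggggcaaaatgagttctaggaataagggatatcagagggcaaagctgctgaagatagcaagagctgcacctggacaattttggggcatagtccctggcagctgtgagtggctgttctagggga
In both libraries the counts of Prlr thus lay on transcripts that begin within the upstream start region, save 1.93 counts on Prlr-210 in replicate 2. Prl, the hormone gene, had 6 counts in replicate 1 and 0 in replicate 2. The signalling partners Jak2 (16.05 and 18.95 TPM) and Stat5b (14.5 and 15.5 TPM) had more TPM than the receptor, whereas Stat5a, at 1.09 and 1.39 TPM, had less in both libraries. Of the 9 genes of that list, Prlr included, 8 reached 1 TPM in both libraries, with 1 called lower and 1 higher. The lower call, of Socs2, was lost under TMM, DESeq2 and spike-in scaling, and with spike-in scaling 3 were higher.

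Kcnj13 (ENSMUSG00000079436.3, chromosome 1, 87386363 to 87394729, minus strand) encodes Kir7.1, an inward rectifier potassium channel of the apical membrane of choroid plexus and retinal pigment epithelium. It had 584.81 and 302.45 counts, or 23.36 and 13.22 TPM. It was the highest of 15 measured Kcnj genes in both libraries, ahead of the vascular channel gene Kcnj8 at 11.4 TPM in each. The gene lies within Gigyf2 on the opposite strand, and the gene models share 623 exonic bases. Gigyf2 stood at 53.5 and 46.7 TPM, and the strand setting is not given in the sources used here, so some reads of the 2 genes may not be told apart.

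Clic6 (ENSMUSG00000022949.5, chromosome 16, 92485736 to 92541243), of the chloride intracellular channel family, had 576 and 375 counts, or 7.36 and 5.24 TPM, all on Clic6-201. It was the third highest of 5 measured Clic genes, after Clic4 and Clic1. Aqp1 (ENSMUSG00000004655.5, chromosome 6, 55336432 to 55348555), the water channel of the apical membrane, had 279 and 144 counts, or 5.16 and 2.91 TPM. Red cells also carry Aqp1. Of 9 measured red cell genes, 6 were called higher and 2 lower in replicate 2, against a lower Aqp1, and the part of red cells in the level of Aqp1 was not tested. Aqp4, the water channel of astrocytes and ependyma, had 3.60 and 6.46 TPM. Aqp1 was thus above Aqp4 in replicate 1 and below it in replicate 2, and between the libraries Aqp1 was lower and Aqp4 higher in replicate 2. Aqp11, of intracellular membranes, was the highest of 11 aquaporin genes at 17.8 and 18.8 TPM.

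Slc4a5 (ENSMUSG00000068323.8, chromosome 6, 83219828 to 83304945) encodes NBCe2, a sodium bicarbonate cotransporter of the apical membrane. It had 341 and 274 counts, or 3.75 and 2.81 TPM, and ranked low among the 10 measured Slc4 genes, below Slc4a10 at 26.8 and 30.3 TPM and Slc4a2 at 17.7 and 16.0 TPM. Those encode the basolateral bicarbonate transporters of the epithelium and are also expressed in other cells. Slc4a5-201 held 98.7% and 98.3% of the counts. A noncoding model of 437 bases, Slc4a5-204, held 4.43 counts in replicate 1 but 16.3% of the TPM there, and none in replicate 2. Part of the gap between the gene's TPM values therefore comes from those few counts: with all counts on Slc4a5-201 the levels would be 3.18 and 2.79 TPM.

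**Figure D2:**
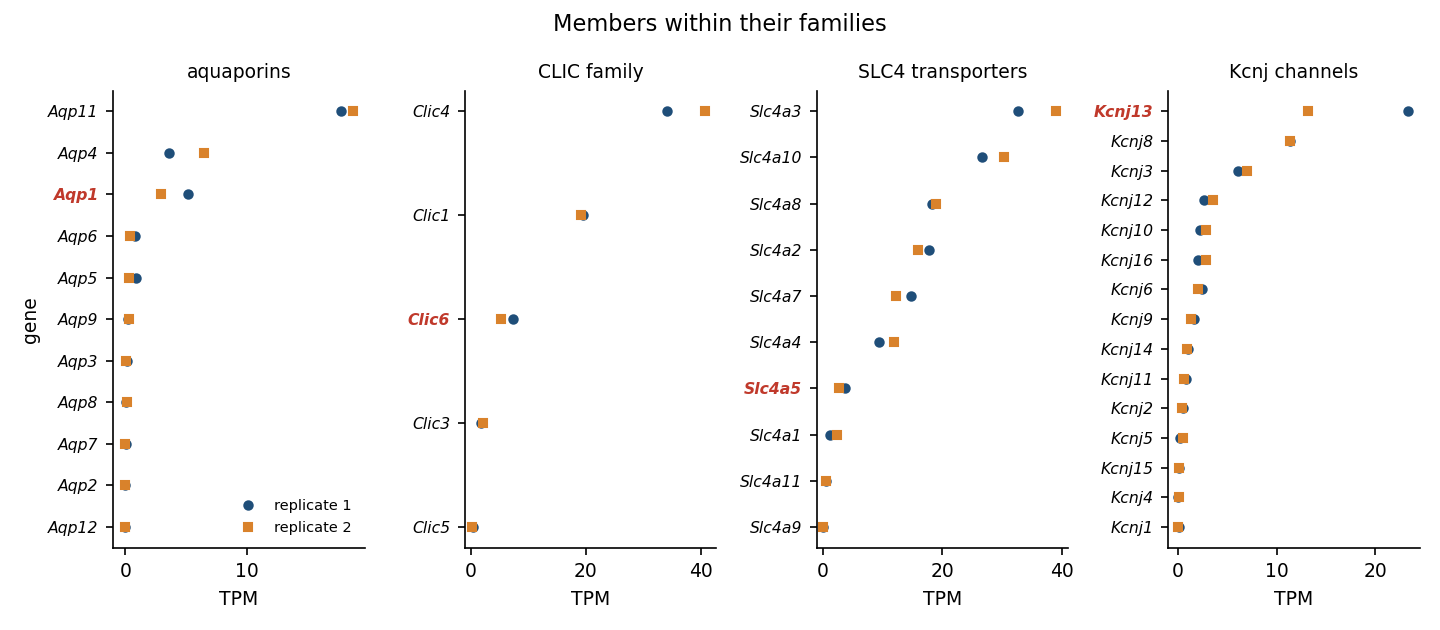
TPM of every measured gene of 4 families, replicate 1 as circles and replicate 2 as squares, ordered by mean level, with the member of the set in bold red. Kcnj13 leads its family in both libraries, whereas Aqp1, Clic6 and Slc4a5 lie below other family members.

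Of the 10 genes, 6 had all TPM on 1 transcript in both libraries: Ttr, Kcnj13, Clic6, Kl, Aqp1 and Sostdc1. For Ttr, Kl, Aqp1 and Sostdc1 only 1 transcript is annotated in the file. The models of Folr1, Enpp2, Slc4a5 and Prlr were mixed.

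**Figure D3:**
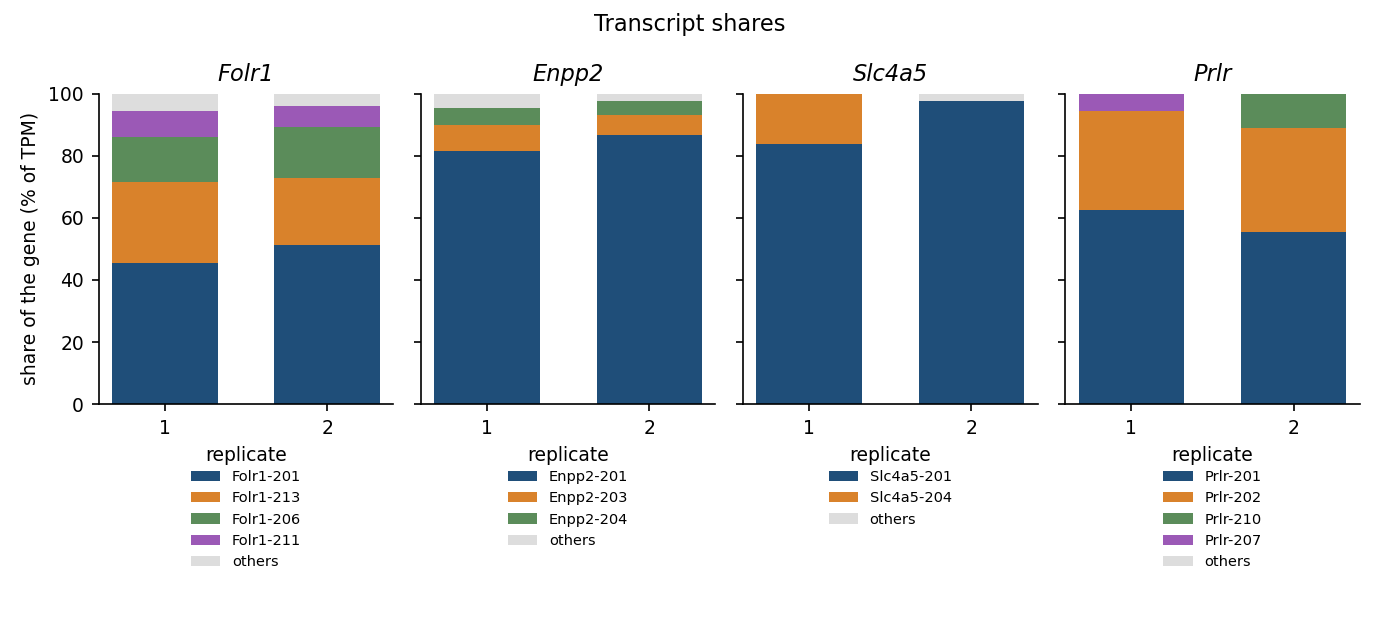
Share of each gene's TPM held by its annotated transcripts in replicates 1 and 2, for the 4 genes with more than 1 transcript in use. Colours are transcripts with at least 5% in either library, and grey is the rest. Enpp2-201 holds 81.6% and 86.5% of Enpp2, and Folr1-201 holds 45.5% and 51.1% of Folr1.

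Promoter windows from RefSeq (GRCm38.p6) were searched for 5 of the 10 genes, Kcnj13, Kl, Aqp1, Slc4a5 and Prlr. Ttr was left out of this search, so the motif counts do not cover it. For the 5 genes, the 250 bases before the start were searched. They are shown as the start regions of the channel, transporter and receptor genes, and whether they bear on the difference between the libraries was not tested. Each reads 5′ to 3′ on the strand of its gene, with motif matches in capitals.
Kcnj13, chr1:87394730-87394979, minus strand: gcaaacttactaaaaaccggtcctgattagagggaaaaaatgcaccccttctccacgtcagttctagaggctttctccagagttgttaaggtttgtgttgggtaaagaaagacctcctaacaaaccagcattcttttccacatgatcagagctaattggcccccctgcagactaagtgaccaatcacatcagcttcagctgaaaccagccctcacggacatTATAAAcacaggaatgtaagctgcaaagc
Aqp1, chr6:55336049-55336298, plus strand: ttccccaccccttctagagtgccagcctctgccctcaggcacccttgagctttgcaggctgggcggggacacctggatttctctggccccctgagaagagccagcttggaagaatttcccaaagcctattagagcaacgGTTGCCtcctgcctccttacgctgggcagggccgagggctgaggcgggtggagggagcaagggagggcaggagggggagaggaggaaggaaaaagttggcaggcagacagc
Kl, chr5:150952357-150952606, plus strand: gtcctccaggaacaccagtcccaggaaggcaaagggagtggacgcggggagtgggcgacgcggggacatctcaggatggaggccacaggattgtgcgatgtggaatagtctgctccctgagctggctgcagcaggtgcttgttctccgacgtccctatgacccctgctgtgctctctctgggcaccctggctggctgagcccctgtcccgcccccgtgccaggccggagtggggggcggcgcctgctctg
Slc4a5, chr6:83237125-83237374, plus strand: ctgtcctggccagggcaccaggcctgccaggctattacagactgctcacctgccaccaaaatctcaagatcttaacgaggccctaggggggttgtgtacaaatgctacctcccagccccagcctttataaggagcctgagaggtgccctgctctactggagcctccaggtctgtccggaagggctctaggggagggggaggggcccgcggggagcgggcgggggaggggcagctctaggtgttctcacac
Kcnj13 held a TATA box, TATAAA, that begins 29 bases before the start, a motif present on the sense strand of 7.59% of 32851 promoter windows of the same length. Aqp1 held GTTGCC, a core of the X-box that RFX factors of ciliated cells bind, 111 bases before the RefSeq start at 55336299, and 10.4% of windows hold it on either strand. That start lies upstream of position 55336432, where Aqp1-201, the transcript with all Aqp1 counts, begins, so the match is further from the start of Aqp1-201. The second Prlr window held the forkhead motif TGTTTAC, found in 3.17% of windows. The bicoid-type homeobox motif TAATCC, of the kind OTX2 binds, was found in none of the 7 windows of these 5 genes on either strand, against 6.25% of all windows. No 2 matches overlapped. In base composition, Kcnj13 had 45.2% G and C, and Kl, Aqp1 and Slc4a5 had 66.8%, 62.0% and 62.8%.

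Between the libraries, 7 of the 10 genes were lower in replicate 2, 1 was higher and 2 were not called. Over all genes tested the shares were 18.7% lower and 15.7% higher. Either direction together makes 34.4% of genes, so calls are common between these libraries. With the spike-in total as scale, 80.6% of all calls were higher in replicate 2, against 45.7% in the main scaling. The set's counts in that scaling were 6 lower and 1 higher, Enpp2 no longer being called (adjusted p = 0.7887, exact binomial test).

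Count ratios, replicate 2 over replicate 1, are given with exact 95% Clopper-Pearson intervals, which cover counting error only. The ratio was 0.536 for Aqp1 (0.436 to 0.658), 0.537 for Kcnj13 (0.465 to 0.618), 0.570 for Ttr (0.561 to 0.579) and 0.613 for Folr1 (0.541 to 0.695). These 4 intervals overlapped one another. Clic6 had a ratio of 0.677 (0.593 to 0.772) and Sostdc1 of 0.716 (0.646 to 0.793), and both intervals lay above that of Ttr. Enpp2 differed least among the called genes, at 0.910 (0.875 to 0.946). Slc4a5 had 0.835 (0.710 to 0.982) and was not called after adjustment (adjusted p = 0.071, exact binomial test). Prlr had 1.01 (0.804 to 1.28), an interval that allows a difference of either sign. Kl went the other way, at 1.58 (1.21 to 2.06, adjusted p = 0.003, exact binomial test). The deposited TPM intervals of replicates 1 and 2 were separate for 7 genes and overlapped for Enpp2, Slc4a5 and Prlr. The share of all genes with separate intervals was not computed, so this count has no background to be read against.

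**Figure D4:**
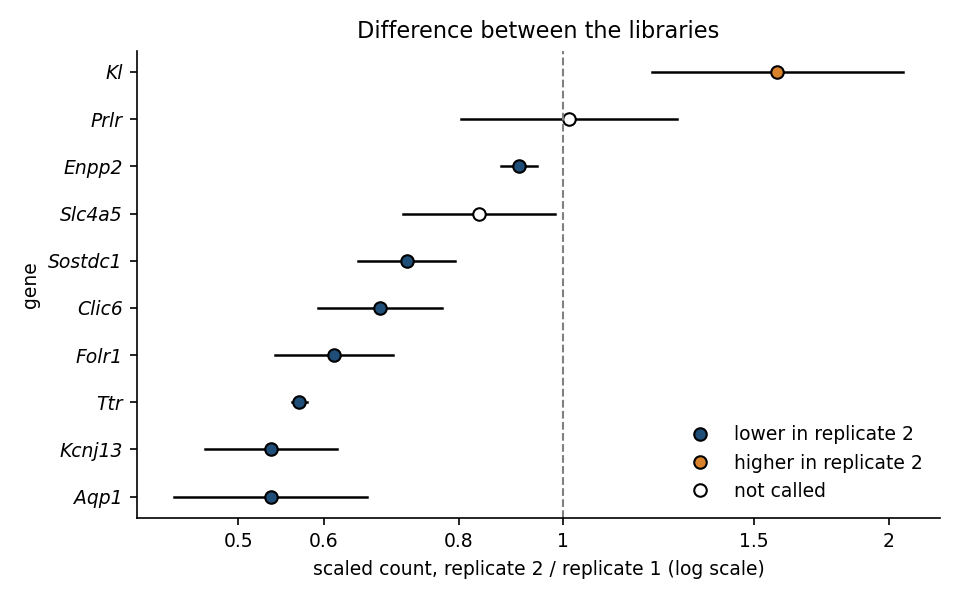
Scaled count of replicate 2 over replicate 1 for each gene on a log axis, with exact 95% intervals for counting error. Blue points were lower and the orange point higher in replicate 2, white points were not called, and the dashed line is equality. Aqp1, Kcnj13, Ttr and Folr1 group between 0.536 and 0.613, and Kl lies at 1.58.

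On the log2 scale of TPM + 1 the median difference of the set was -0.41, against 0.05 for the 15661 genes whose mean reached 1 TPM. Single values ran from -0.78 for Kcnj13 to 0.39 for Kl. Of those 15661 genes, 98.4% had a higher difference than Ttr, 98.5% than Kcnj13 and 97.9% than Folr1 and Aqp1, while 95.6% had a lower one than Kl. Relative to Ttr the set was therefore not constant: Ttr was 33.5 times Folr1 in replicate 1 and 31.9 times in replicate 2, but 20.96 and 13.2 times Enpp2.

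Other genes of the choroid plexus did not all move with Ttr. Of 21 further transporters and channels, 7 were lower, 3 higher and 11 not called, with a median log2 difference of 0.04. With spike-in scaling these became 5 lower and 6 higher, where 8.46% of all genes were lower and 35.2% higher. Kcne2, the partner subunit of apical potassium channels, went from 42.5 to 26.1 TPM. Car12, a membrane carbonic anhydrase, had 4.85 and 3.58 TPM and was lower, whereas Slc22a8, an organic anion transporter, had 5.51 and 7.36 TPM and was higher. Atp1b1, the beta subunit of the sodium pump and abundant in neurons too, was higher at 187 and 269 TPM.

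Of 25 measured secreted, surface and junction genes, 13 were lower, 1 higher and 11 not called, with a median of -0.19, and with spike-in scaling 10 were lower and 2 higher. Calml4, a calmodulin-like gene, had 24.9 and 13.6 TPM, and the epithelial keratins Krt18 and Krt8 had 12.7 and 7.12 TPM and 5.87 and 3.51 TPM. These 3 genes, with the lowest log2 differences of the list, were lower in replicate 2. Igf2, a growth factor made by choroid plexus and by meninges, had 150 and 112 TPM and was lower. Cst3, the protease inhibitor cystatin C, had 576 and 567 TPM and was called lower, a call lost with spike-in scaling. The same held for Igfbp2, at 373 and 357 TPM. Vat1l, the 1 gene called higher in the main scaling, had 46.8 and 54.0 TPM.

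Of 17 roof plate and choroid plexus factors and signals, 16 were tested, 6 were lower and 1, Lmx1a, was higher. With TMM and DESeq2 factors 6 were lower and 2 higher, and with spike-in scaling 5 were lower and 2 higher. In each of these scalings Rfx3 was also called higher. Otx2, the homeobox gene required for choroid plexus, had 14.2 and 16.2 TPM and was not called (adjusted p = 0.872, exact binomial test). Msx1, a BMP-responsive homeobox gene of the roof plate, had 29.6 and 20.5 TPM and was lower. Of 18 genes of multiciliated cells, 8 reached 1 TPM in both libraries, 15 were tested, 10 were lower and none was higher, with a median of -0.24, and 7 were lower with spike-in scaling. Foxj1, the regulator of motile cilia, had 12.8 and 10.6 TPM, and the dynein light chain gene Dynlrb2 had 19.4 and 10.3 TPM.

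Markers of other cells also differed between the libraries. All 8 genes of meninges and fibroblasts were lower in replicate 2, with a summed level of 791 TPM in replicate 1 and 659 in replicate 2 and a median of -0.25, and 6 were lower with spike-in scaling. The 8 endothelial genes summed to 232 and 222 TPM, with 4 lower and none higher, and the 5 pericyte genes to 53.9 and 53.4 TPM, with 1 lower. With spike-in scaling no pericyte gene was lower and 1 was higher. The neural lists are read against 18.7% lower and 15.7% higher over all genes tested. Of 5 oligodendrocyte precursor genes, 4 were higher and none lower, with sums of 110 and 140 TPM. The 6 neuronal genes summed to 4115 and 4452 TPM, with 1 higher, and the 6 radial glia genes to 2486 and 2499 TPM, with 2 higher and 2 lower. Of 8 microglial genes 1 was lower, and with spike-in scaling 1 was lower and 1 higher. Of 6 floor plate genes 2 were lower and 1 higher, none being lower with spike-in scaling. The vascular and neural counts depended on the scale. With spike-in scaling 8.46% of all genes tested were lower and 35.2% higher. In that scaling none of the endothelial genes was called. There, 6 of 6 neuronal genes, 4 radial glia genes and all 5 oligodendrocyte precursor genes were higher. The part of these cell types in the values of the set was not tested.

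**Figure D5:**
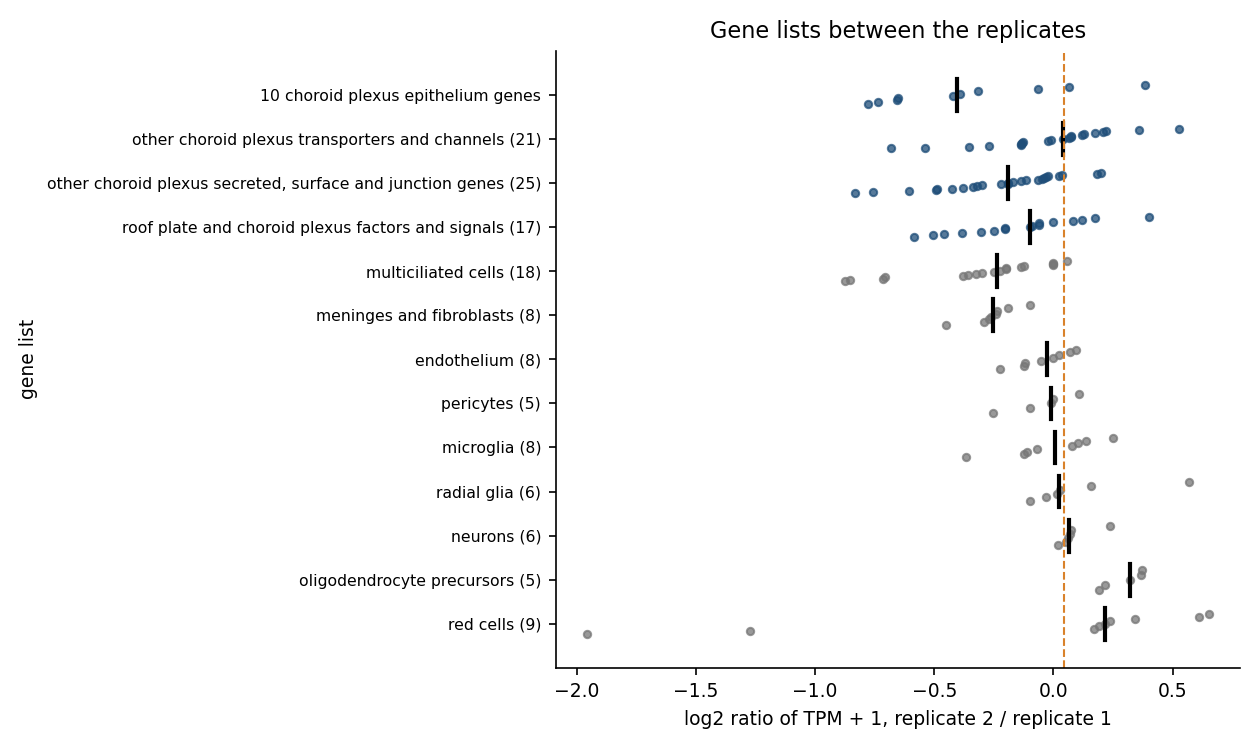
Difference of replicate 2 from replicate 1 in log2(TPM + 1) for the measured genes of 13 lists, with a point for each gene, with the number measured in brackets. Black bars are list medians and the dashed line is the median of 15661 genes, 0.05. The 10 choroid plexus epithelium genes have a median of -0.41, and the multiciliated and meningeal lists have medians of -0.24 and -0.25.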

How the data were processed

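Total RNA longer than 200 nt was sequenced from 2 hindbrains, with 10 ng of RNA per library, per the labels. The authors assigned reads to mm10 with annotation M4, per the descriptions that accompany the libraries. Not given in the sources used here: aligner, quantifier and strand setting. As deposited, an expected count is the estimated number of reads on a gene or a transcript. For the deposited TPM and FPKM, the authors' scale covers every feature of the file, including 96 spike-in RNAs. The deposited score columns used are the bounds of the TPM interval, whose level is not stated. The deposited percent of a gene per transcript was only set beside shares recomputed here from TPM.

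Symbols were matched by identifier without version for 42462 of 43346 genes. Positions come from GENCODE M21, on GRCm38, the assembly of mm10; 46 of 47 transcripts of the 10 genes were found there, 42 with the same length. A symbol's copy with the higher mean was used. Log2 values used a pseudocount of 1. The exact binomial test took rounded counts where the mean over both libraries reached 10, with a threshold of 0.05. It was run on simulated counts with sampling noise only. That run cannot show how the test behaves under the wider spread of these libraries. edgeR and DESeq2 gave scaling factors and no test, since 1 library a side gives no spread. The members, lists and tests were chosen with earlier results of these data known. The naming rule took the 10 members, up to 4 genes of each other list by mean TPM plus those needed to account for a list, and up to 10 genes with the lowest and 5 with the highest log2 difference; Aqp5, the regional genes and some list genes were chosen after their values were seen. The list gene Ecrg4 and the red cell gene Ahsp had no matching identifier. Alternatives were TMM (edgeR 4.0.16) and DESeq2 1.42.0 size factors, spike-in scaling, other units, filters and limits. Tables were handled in pandas 2.3.3 under Python 3.11.15, tests came from scipy 1.17.1 with numpy 2.4.6, scaling factors from R 4.3.3 and plots from matplotlib 3.10.9. The libraries differed by more than sampling noise, with a mean chi-square of 12.7 per gene, and were kept as 2 replicates. Reads carry no molecular identifiers here, so intervals and floors cover counting error only. Some genes of the lists are not reported here by name.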

Additional observations from a re-analysis of the deposited data

How the results depend on the processing

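No paired analysis was possible because both samples belong to 1 group. Of the 10 genes, 7 were called lower under the TMM, DESeq2, unfiltered and stricter count settings, 6 with spike-in scaling and 4 when a difference of at least 1.5-fold was also required. Kl was called higher in all 7 settings. Over all genes, 3300 were lower in the main setting, 1495 with spike-in scaling and 785 with the 1.5-fold requirement. In the same order 2779, 6216 and 269 were higher. As shares of the genes tested, these were 18.7%, 8.46% and 4.44% lower, and 15.7%, 35.2% and 1.52% higher. In the TMM, DESeq2, unfiltered and stricter count settings 16.0%, 15.7%, 12.5% and 21.3% of genes were lower. In that order 18.9%, 19.3%, 10.6% and 20.2% were higher. The median log2 difference of the set ran from -0.38 with spike-in scaled counts to -0.47 with TMM-scaled counts, and was -0.39 without Ttr. The median over genes with a mean of 1 TPM moved with the setting too. It was 0.096 with spike-in scaled counts, 0.005 with TMM-scaled counts and -0.017 with FPKM. Between 6 genes (limit of 5 TPM) and all 10 (0.5 TPM or 10 counts) were detected, 8 with all counts on 1 transcript; using replicate 1 alone gave 9 and replicate 2 alone 10. Levels moved by more than the replicate spread for Prlr, to between 0.764 and 2.29 TPM, and for Enpp2, to 96.6 TPM without mitochondrial and spike-in features. The main transcript share of Folr1 was 48.3% by TPM and 70.6% by counts, that of Prlr 58.8% and 35.8%, and that of Slc4a5 90.6% by TPM and 64.7% by posterior mean. Calls in the other gene lists were also recomputed under each scaling, a choice made after the data were seen. Kl and Prlr, with 95 to 155 counts in a library, have the widest intervals of the set relative to their ratio.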

Other observations

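Among 4068 called protein-coding genes whose mean reached 10 TPM and 100 counts, 11 had a log2 difference at or below that of Ttr, Ttr included. Besides Ttr and Kcnj13 they were Calml4 of the choroid plexus lists, Dynlrb2 of the multiciliated list, the embryonic globins Hbb-y and Hba-x, the Hox genes Hoxc8 and Hoxb9, the mitochondrial gene mt-Nd4l, Fxyd1 and Defb11. Fxyd1, a small regulator of the sodium pump, had 35.4 TPM in replicate 1 and 20.7 TPM in replicate 2, a log2 difference of -0.75. Defb11, annotated as a beta-defensin, had 45.7 and 25.1 TPM, a difference of -0.84. Both lay outside the lists used here and were taken by the rule for the lowest differences. At the other end, the 5 highest differences outside the lists were led by Cnpy1, a gene of the midbrain-hindbrain boundary, at 1.79 and 24.7 TPM (log2 difference 3.20), and Gm14434, at 5.29 and 19.1 TPM (1.68). Tmem237 had 19.4 and 42.97 TPM (1.11), Xlr3b 16.7 and 34.3 TPM (0.99) and the LIM homeobox gene Lhx9 7.40 and 14.65 TPM (0.90). The part of tissue composition in these differences, or in those of the 10 genes, was not tested.

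Aqp5, a water channel of secretory epithelia, was called lower in replicate 2, on only 27 and 8 counts. Its level of 0.87 and 0.28 TPM was below 1 TPM in both libraries. The astrocyte channel gene Aqp4, with 383 and 629 counts, was called higher. Fgfr2, a receptor of epithelial and glial cells, had 34.4 and 24.3 TPM and was lower, whereas Fgfr1 and Fgfr3 were not called, and were higher with spike-in scaling.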
